A study of Rattus norvegicus with 8 samples.

Results

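The genes described here are the plasma factors of blood clotting and complement, measured as mRNA in rat liver. The list named 35 genes, 18 of coagulation and 17 of complement, and each was represented by 1 probe set: the brightest, over all 8 arrays, among those that the platform annotation gives to a single gene symbol. Thus 30 of the 35 genes were measured, 15 of coagulation and 15 of complement, out of 9829 genes with such a probe set above the filter on dim signals. All 30 passed that filter, with mean levels between 9.58 and 14.27 on the log2 scale, against a median of about 5.49 for a whole array. C2 and Cfb are represented only by probe sets that carry both symbols and were given no value, and F7, F11 and F13b were not analysed here.

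Livers came from male Sprague-Dawley rats, and each group was hybridised to 2 Affymetrix arrays. Dex rats were gavaged with vehicle for 3 days and injected on the third day, into muscle, with dexamethasone at 1.5 mg/kg. GW3965 rats were gavaged with GW3965 at 50 mg/kg over the same days and injected with saline. Dex+GW3965 rats received GW3965 by gavage and dexamethasone by injection. Vehicle rats received the gavage vehicle and saline. All livers were taken 24 hours after the injection. Dexamethasone is a synthetic ligand of the glucocorticoid receptor, and GW3965 a synthetic agonist of the liver X receptors (LXRs), which respond to oxidised cholesterol. The study asked whether LXR activation modifies the transcriptional response to the glucocorticoid. Within a group the array labels share 1 liver number and differ by letter (a or b), whereas per the methods 2 animals received each treatment, so p-values measure the spread between these arrays, which may be technical.

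Hepatocytes make most clotting and complement proteins and secrete them into plasma as inactive precursors. In coagulation, a chain of serine proteases and cofactors ends in thrombin, which cleaves fibrinogen into fibrin, while antithrombin and related inhibitors hold the chain back and plasmin dissolves the clot. In complement, the classical, lectin and alternative pathways meet at the cleavage of C3, after which C5 to C9 assemble a pore in the target membrane. Several of these genes belong to the acute phase response of the liver, in which interleukin 6 and glucocorticoids act together on transcription.

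Over the 30 genes, arrays a and b lay a median of 0.0182 (Dex), 0.0237 (GW3965), 0.023 (Dex+GW3965) and 0.0541 (vehicle) apart on the log2 scale, with the largest gap, 0.168, for Fga on the Dex arrays. The number of arrays limits the precision. The 7 hepatocyte markers measured (of 8 listed, Alb and Apoa1 among them) summed to linear signals of 128000 to 129000 on the Dex arrays, 125000 to 127000 on the GW3965 arrays, 131000 on both of the Dex+GW3965 arrays and 127000 to 131000 on the vehicle arrays, with none at 0. Of the other cell types, 6 stellate cell markers summed to 2440 to 2490 with Dex, 3480 to 3560 with GW3965, 2390 to 2430 with Dex+GW3965 and 4300 to 4370 with vehicle. The 5 Kupffer cell markers on the array (of 8 listed) summed to 2160 to 2180 with Dex, 3250 to 3270 with GW3965, 2280 to 2350 with Dex+GW3965 and 2320 to 2360 with vehicle. The stellate sum rests largely on Col3a1: 4 of its 6 markers were lower with Dex, while Rgs5 was higher (2.37-fold) and Des did not pass. Summed signals of 3 neutrophil markers were 67.2 to 75.2 with Dex, 63.5 to 68.6 with GW3965, 93.4 to 96.2 with Dex+GW3965 and 222 to 224 with vehicle. For 3 erythrocyte markers they were 12100 to 12400 with Dex, 17700 to 18700 with GW3965, 8730 to 8900 with Dex+GW3965 and 11500 to 12300 with vehicle. For 4 platelet markers they were 364 to 411 with Dex, 713 to 748 with GW3965, 372 to 411 with Dex+GW3965 and 434 to 455 with vehicle. Dex, GW3965 and Dex+GW3965 arrays all lay apart from vehicle on the neutrophil and platelet sums. On the erythrocyte sum, GW3965 and Dex+GW3965 arrays did. With GW3965 against vehicle, 1 of the 3 platelet markers tested was higher, 1 lower and 1 did not pass. Pf4 read 9.05 and 8.96 with GW3965 and 7.57 and 7.74 with vehicle. In the same comparison 2 of 3 erythrocyte markers were higher and 1 lower, and 2 of 5 Kupffer cell markers were higher and 3 did not pass. The neutrophil marker S100a8 lay under the whole-array median of about 5.49 on all treated arrays. S100a9 read 5.48 and 5.22 with Dex and 5.16 and 4.88 with GW3965, and the third neutrophil marker, Csf3r, lay under the filter. The neutrophil sums with Dex and with GW3965 are thus near background. All 6 T and NK cell markers lay under the filter, and markers of B cells, sinusoidal endothelial cells and cholangiocytes also differed between groups. Since whole liver was measured, fewer cells of a type and less RNA per cell cannot be told apart, and the part of these markers in the results was not tested.

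Dexamethasone alone lowered most of the genes. Against vehicle, 24 of the 30 genes passed (limma, adjusted p under 0.05 over all 16253 probe sets kept), 21 lower and 3 higher, while 41.9% of all probe sets passed, 24.7% lower and 17.2% higher. The median change was -0.22 over the 30 genes, against -0.01 over all probe sets. Among the 15 complement genes 12 fell and none passed as higher, with a median of -0.26. Among the 15 coagulation genes 9 fell and 3 rose, with a median of -0.13. After quantile normalization 7 coagulation genes fell and 3 rose (median -0.06), and 11 complement genes fell (median -0.23). After each array was centred on its median, 7 coagulation genes fell and 3 rose (median -0.10), and 12 complement genes fell (median -0.23). Over all probe sets 41.9% and 42.2% passed under these scalings (medians 0.01 and 0.02). In the main fit the falls that reached 2-fold were those of Klkb1 (5.39-fold), C1s (2.21-fold), Mbl2 (2.13-fold) and C9 (2.08-fold). Over all probe sets 695 changed by at least 2-fold. Dex and vehicle arrays did not overlap on 28 of the 30 genes, and on 69.2% of all probe sets. Against vehicle this held for 20 genes with GW3965 (57.7% of all probe sets) and 24 with Dex+GW3965 (65.4%). For Dex+GW3965 it held for 25 genes against Dex (60.3%) and 25 against GW3965 (67.6%). A lack of overlap named below for single genes stands beside these shares. Of the 24 calls, 20 were kept whichever single array was left out, and the other 4 were those of F10, Proc, F12 and Serpind1, for which the values without single arrays are given with each gene.

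**Figure D1:**
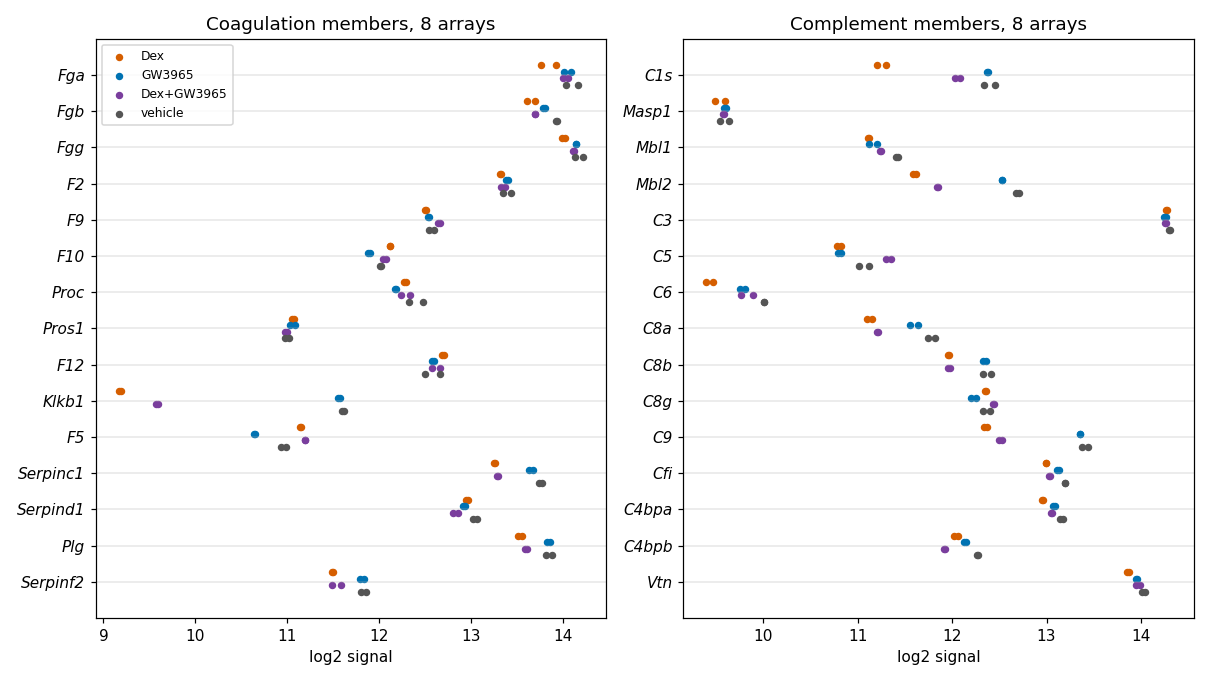
Log2 signal (horizontal axis) of the 15 coagulation genes (left) and the 15 complement genes (right), 1 row per gene and 1 point per array, coloured by group (Dex, GW3965, Dex+GW3965, vehicle). Klkb1 shows the widest gap, with the Dex and Dex+GW3965 points below 10 and the GW3965 and vehicle points above 11.5.

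**Figure D2:**
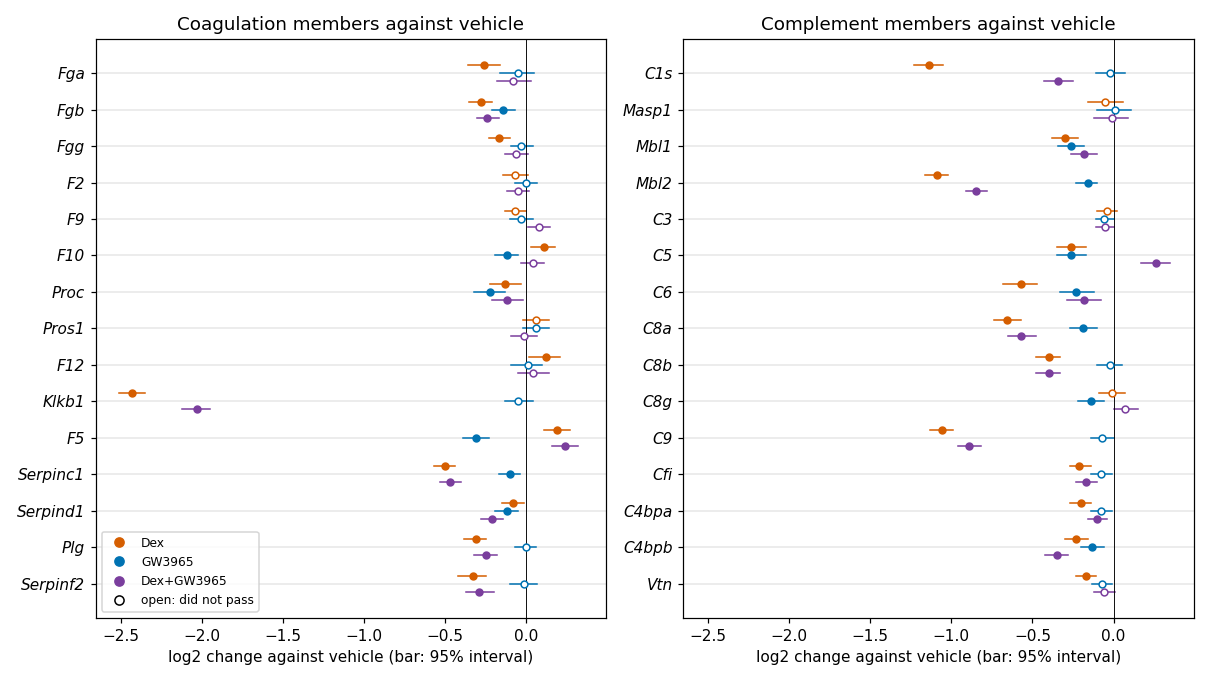
Log2 change against the vehicle arrays (horizontal axis) of each gene in the Dex, GW3965 and Dex+GW3965 groups, with bars for the 95% interval. Filled points passed at an adjusted p under 0.05 and open points did not. With Dex, 21 of the 30 genes lie to the left of 0 as filled points and 3 to the right.

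Plasma prekallikrein, encoded by Klkb1, is the zymogen that factor XII activates in the contact system, and once active it liberates bradykinin from kininogen. Klkb1 read 9.17 and 9.19 on the Dex arrays, 11.55 and 11.58 on the GW3965 arrays, 9.59 and 9.57 on the Dex+GW3965 arrays, and 11.62 and 11.60 on the vehicle arrays. Both groups that received dexamethasone lay about 2 log2 units below the other groups, without overlap. The change was -2.43 ± 0.039 (limma, SE) with Dex (adjusted p = 3.5e-18), -0.05 with GW3965 (adjusted p = 0.48) and -2.03 ± 0.039 with Dex+GW3965 (adjusted p = 6.8e-17), which is 4.09-fold lower. The Dex+GW3965 arrays lay 0.40 ± 0.039 above the Dex arrays (adjusted p = 7.1e-07). Factor XII, the protease at the head of the contact system, did not share the fall. F12 read 12.69 and 12.71 with Dex, 12.58 and 12.60 with GW3965, 12.67 and 12.58 with Dex+GW3965, and 12.50 and 12.66 with vehicle. Its rise of 0.12 with Dex (adjusted p = 0.043) depended on the vehicle arrays, which differed by 0.164: it was 0.04 without vehicle array a, 0.20 without vehicle array b, and the call was also lost without Dex array a (0.13), Dex array b (0.11) or either GW3965 array (0.12). F11, the next protease of this route, is the neighbour of Klkb1 on chromosome 16 (RefSeq, GRCr8).

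**Figure D3:**
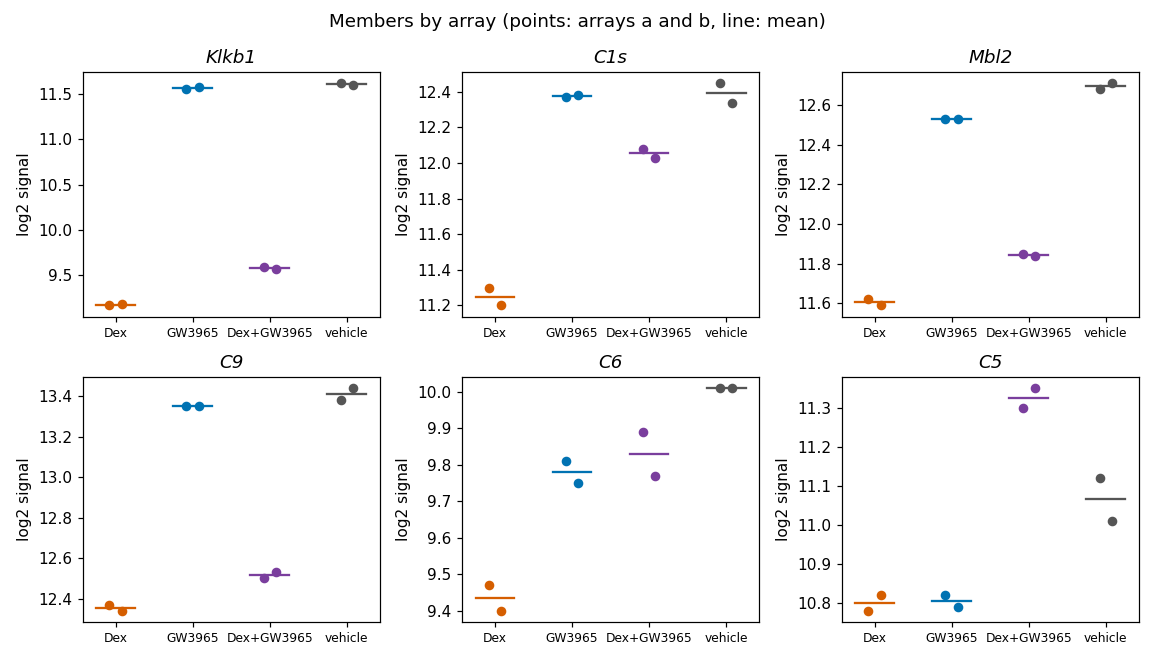
Log2 signal on each array (points) with the group mean (line) for 6 genes, in the groups Dex, GW3965, Dex+GW3965 and vehicle, with a separate vertical scale for each gene. Klkb1, Mbl2 and C9 are low in both groups given dexamethasone, C1s and C6 are lowest with Dex alone, and C5 is highest with Dex+GW3965.

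The 3 chains of fibrinogen, the substrate of thrombin, fell together by small amounts. Fga, for the alpha chain, read 13.76 and 13.93 on the Dex arrays, 14.09 and 14.01 on the GW3965 arrays, 14.00 and 14.06 on the Dex+GW3965 arrays, and 14.17 and 14.04 on the vehicle arrays. Fgb, for the beta chain, read 13.61 and 13.70 with Dex, 13.81 and 13.79 with GW3965, 13.70 on both arrays with Dex+GW3965, and 13.94 and 13.93 with vehicle. Fgg, for the gamma chain, read 13.99 and 14.03 with Dex, 14.15 on both arrays with GW3965, 14.11 and 14.12 with Dex+GW3965, and 14.22 and 14.14 with vehicle. On all 3 genes both Dex arrays lay below both vehicle arrays. The changes with Dex were -0.26 ± 0.048 for Fga (adjusted p = 0.00028), -0.28 ± 0.033 for Fgb (adjusted p = 1.4e-06) and -0.17 ± 0.032 for Fgg (adjusted p = 0.00033). For Fga the value was -0.17 without Dex array a, still past the threshold. With Dex+GW3965 against vehicle only Fgb passed (-0.24, adjusted p = 1.5e-05), while Fga was at -0.08 and Fgg at -0.06. With GW3965 alone Fgb was at -0.14 (adjusted p = 0.005), a call that was lost without GW3965 array b (-0.13), and Fga (-0.05) and Fgg (-0.03) did not pass.

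A second probe set of Fga gave a larger change than the brightest. It averaged 11.45 on the Dex arrays and 12.20 on the vehicle arrays, a change of -0.75 ± 0.036 (adjusted p = 1.1e-11), and on the Dex+GW3965 arrays it averaged 11.73, a change of -0.47 against vehicle (adjusted p = 9e-09). Thus the size of the fall in Fga differed between its probe sets, and the call with both compounds did too. The second probe set of Mbl2 gave -1.18 with Dex, close to the -1.09 of the brightest. For Masp1 the brightest of 3 probe sets did not pass with Dex (-0.05), the next read -0.36 (adjusted p = 0.00015), and the dimmest read 0.12 without passing. The transcripts that these probe sets cover were not compared.

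**Figure D4:**
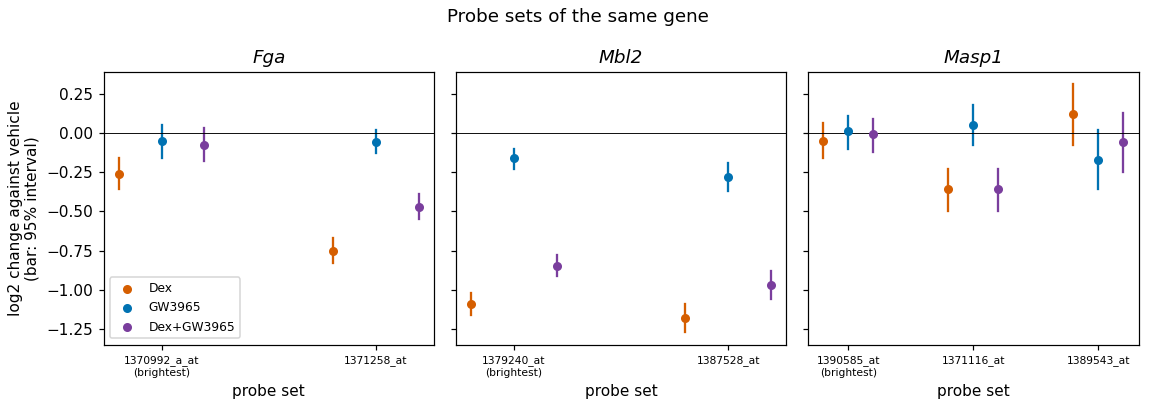
Log2 change against vehicle (vertical axis, bars for the 95% interval) for each probe set of Fga, Mbl2 and Masp1, with the brightest first, in the Dex, GW3965 and Dex+GW3965 groups. The Dex changes of Fga are -0.26 and -0.75, those of Mbl2 -1.09 and -1.18, and those of Masp1 -0.05, -0.36 and 0.12.

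The fibrinogen genes stand side by side on chromosome 2, in the order Fgg, Fga and Fgb, and their promoters hold motifs of acute phase factors. The 250 bases before the start of each gene are shown (RefSeq, build GRCr8) because the 3 chains moved together, with capitals for CTGGGAA, an interleukin 6 response element described in fibrinogen genes, and for TTCNNNGAA, a STAT motif, each searched on both strands. Fga covers chr2:170671919-170672168 (plus strand), Fgb chr2:170700876-170701125 (minus strand) and Fgg chr2:170652833-170653082 (plus strand).
Fga: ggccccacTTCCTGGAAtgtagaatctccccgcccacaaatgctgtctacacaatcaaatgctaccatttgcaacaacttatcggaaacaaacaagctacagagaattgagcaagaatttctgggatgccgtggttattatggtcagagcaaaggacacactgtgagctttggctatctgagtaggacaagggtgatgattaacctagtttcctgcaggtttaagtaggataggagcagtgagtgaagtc
Fgb: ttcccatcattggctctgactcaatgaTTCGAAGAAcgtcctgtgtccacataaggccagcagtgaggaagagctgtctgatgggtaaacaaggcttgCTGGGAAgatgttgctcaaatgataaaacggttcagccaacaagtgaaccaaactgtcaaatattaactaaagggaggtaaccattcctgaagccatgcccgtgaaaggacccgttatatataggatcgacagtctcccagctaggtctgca
Fgg: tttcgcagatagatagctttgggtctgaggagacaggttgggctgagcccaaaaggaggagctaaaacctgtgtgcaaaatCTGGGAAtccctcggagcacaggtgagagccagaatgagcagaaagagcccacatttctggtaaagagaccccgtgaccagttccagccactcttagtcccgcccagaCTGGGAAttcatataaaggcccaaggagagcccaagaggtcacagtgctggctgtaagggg

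For comparison, the same windows of Klkb1 (chr16:53690976-53691225, plus strand) and Mbl2 (chr1:237430793-237431042, plus strand), a pair of the genes with the largest falls, hold no copy of the motifs searched and so no capitals.
Klkb1: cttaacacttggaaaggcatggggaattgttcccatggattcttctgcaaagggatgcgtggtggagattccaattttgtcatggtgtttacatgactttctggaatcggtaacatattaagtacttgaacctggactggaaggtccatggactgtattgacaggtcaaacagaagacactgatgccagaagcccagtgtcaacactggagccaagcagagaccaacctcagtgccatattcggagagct
Mbl2: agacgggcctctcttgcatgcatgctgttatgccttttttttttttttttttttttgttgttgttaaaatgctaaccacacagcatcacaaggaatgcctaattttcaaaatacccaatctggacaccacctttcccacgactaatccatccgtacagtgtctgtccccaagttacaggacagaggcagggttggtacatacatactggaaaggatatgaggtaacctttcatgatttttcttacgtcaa

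Promoters were at hand for 26 of the 30 measured genes, the exceptions being C1s, C8g, C9 and Serpind1. For each of the 26 genes 1 promoter was taken, while the 33469 are all promoters given, which may include several of the same gene. CTGGGAA occurred in 8 of the 26 (30.8%: Fgb, Fgg, F9, Serpinc1, Plg, C3, C4bpb and Vtn), and in 9.56% of all 33469 promoters. TTCNNNGAA occurred in 7 of the 26 (26.9%: Fga, Fgb, F9, Pros1, C8a, C4bpb and Vtn), and in 7.67% of all. No motif overlapped another in the windows shown. TGTTCT, the hexamer of glucocorticoid response elements, occurred in 1 of the 26 (F2), and in 17.5% of all, while in windows longer by the first 50 bases of the gene it occurred in 3 of the 26 (F2, Serpinf2 and Masp1) and in 20.7% of all. The whole element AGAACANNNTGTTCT was in 0 of the 26 and in 4 of all promoters, and the LXR element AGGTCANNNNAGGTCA in 0 of the 26 and in 1 of all. A match describes letters and not a bound site, and no match says only that these letters are not in this window.

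The vitamin K dependent proteins, which need carboxylated glutamates to bind membranes, changed little. Prothrombin (F2), between 13.32 and 13.44 over all 8 arrays, and protein S (Pros1), the cofactor of activated protein C, between 10.98 and 11.09, passed in no pairwise comparison. Factor X, the protease that forms the prothrombinase with factor V, was highest with Dex and lowest with GW3965. F10 read 12.12 on both arrays with Dex, 11.90 and 11.88 with GW3965, 12.04 and 12.08 with Dex+GW3965, and 12.01 and 12.02 with vehicle. Its change was 0.11 with Dex (adjusted p = 0.017), -0.12 with GW3965 (adjusted p = 0.014) and 0.04 with Dex+GW3965 (adjusted p = 0.35). The first was lost without Dex array a (0.11) or b (0.10), and the second without GW3965 array a (-0.14) or b (-0.11). Factor IX, the protease missing in haemophilia B, read 12.50 and 12.51 with Dex, 12.53 and 12.55 with GW3965, 12.67 and 12.64 with Dex+GW3965, and 12.60 and 12.55 with vehicle. F9 did not pass with Dex (-0.07, adjusted p = 0.12), but lay 0.15 ± 0.033 higher with Dex+GW3965 than with Dex (adjusted p = 0.0027).

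Protein C, the protease that inactivates factors V and VIII, was lower than vehicle in all 3 treated groups, but its vehicle arrays were far apart. Proc read 12.27 and 12.29 with Dex, 12.18 and 12.19 with GW3965, 12.24 and 12.34 with Dex+GW3965, and 12.48 and 12.33 with vehicle. Dex and GW3965 arrays lay below both vehicle arrays, while Dex+GW3965 array b lay among them. The changes were -0.13 with Dex (adjusted p = 0.031), -0.22 with GW3965 (adjusted p = 0.002) and -0.12 with Dex+GW3965 (adjusted p = 0.047). Without vehicle array a they were -0.05, -0.14 and -0.04, and only that with GW3965 still passed. Without vehicle array b the first and the last were both -0.20. The call with Dex was also lost without Dex array a (-0.12) or b (-0.14), and that with Dex+GW3965 without Dex+GW3965 array a (-0.07) or any 1 of the Dex and GW3965 arrays (-0.12).

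Factor V, the cofactor of factor X, moved in opposite directions with the single compounds. F5 read 11.15 and 11.14 on the Dex arrays, 10.64 and 10.65 on the GW3965 arrays, 11.20 and 11.19 on the Dex+GW3965 arrays, and 10.93 and 10.99 on the vehicle arrays. The 4 pairs of arrays did not overlap, with GW3965 lowest and the groups given dexamethasone highest. The change was 0.19 ± 0.038 with Dex (adjusted p = 0.00055), -0.31 ± 0.038 with GW3965 (adjusted p = 1.1e-05) and 0.24 ± 0.038 with Dex+GW3965 (adjusted p = 6.9e-05). Against the GW3965 arrays the Dex+GW3965 arrays were 0.55 higher (adjusted p = 2.2e-09). All 4 calls were kept whichever array was left out.

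Antithrombin, plasminogen and alpha-2-antiplasmin fell with dexamethasone, and heparin cofactor II was lower by small amounts with each compound. Antithrombin (Serpinc1), which blocks thrombin and factor X, read 13.25 and 13.26 with Dex, 13.63 and 13.68 with GW3965, 13.30 and 13.28 with Dex+GW3965, and 13.74 and 13.77 with vehicle. Its change was -0.50 ± 0.031 with Dex (1.42-fold lower, adjusted p = 3.1e-10) and -0.47 ± 0.031 with Dex+GW3965 (adjusted p = 1.1e-09). With GW3965 it was at -0.10 (adjusted p = 0.027), a call lost without vehicle array b (-0.08), GW3965 array a (-0.08) or GW3965 array b (-0.12). Heparin cofactor II (Serpind1), another inhibitor of thrombin, read 12.95 and 12.97 with Dex, 12.91 and 12.94 with GW3965, 12.86 and 12.81 with Dex+GW3965, and 13.02 and 13.07 with vehicle. It was lowest with both compounds, at -0.21 against vehicle (adjusted p = 5.1e-05), where the call was kept whichever array was left out. With Dex it was at -0.08 (adjusted p = 0.049), lost without vehicle array b (-0.06), Dex array a (-0.07), Dex array b (-0.09) or any 1 of the GW3965 and Dex+GW3965 arrays (-0.08). With GW3965 it was at -0.12 (adjusted p = 0.017), lost without vehicle array b (-0.09), GW3965 array a (-0.10) or GW3965 array b (-0.13).

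Plasminogen (Plg), the precursor of plasmin, read 13.56 and 13.51 with Dex, 13.83 and 13.86 with GW3965, 13.59 and 13.61 with Dex+GW3965, and 13.82 and 13.88 with vehicle. Its serpin inhibitor, alpha-2-antiplasmin (Serpinf2), read 11.49 and 11.50 with Dex, 11.79 and 11.84 with GW3965, 11.59 and 11.49 with Dex+GW3965, and 11.80 and 11.86 with vehicle. On both genes the arrays with dexamethasone lay below those without, and GW3965 and vehicle arrays overlapped. Plg changed by -0.31 ± 0.032 with Dex (adjusted p = 2.8e-07) and -0.25 with Dex+GW3965 (adjusted p = 6.4e-06), and Serpinf2 by -0.33 ± 0.041 (adjusted p = 2.8e-06) and -0.29 (adjusted p = 1.9e-05). GW3965 alone gave 0.00 (95% interval -0.07 to 0.06) for Plg and -0.01 (-0.10 to 0.07) for Serpinf2.

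Complement C1s is the protease of the C1 complex that cleaves C4 and C2 in the classical pathway. C1s read 11.30 and 11.20 on the Dex arrays, 12.37 and 12.38 on the GW3965 arrays, 12.08 and 12.03 on the Dex+GW3965 arrays, and 12.45 and 12.34 on the vehicle arrays. The Dex arrays were the lowest, the Dex+GW3965 arrays lay between them and the rest, and GW3965 and vehicle arrays overlapped. The change was -1.14 ± 0.042 with Dex (adjusted p = 2.4e-13), -0.02 with GW3965 (adjusted p = 0.76) and -0.34 ± 0.042 with Dex+GW3965 (adjusted p = 3.3e-06). C1r, the partner protease in the complex and not among the 35 genes, averaged 10.62 on the Dex arrays, 11.42 on the GW3965 arrays, 11.08 on the Dex+GW3965 arrays and 11.46 on the vehicle arrays, with changes of -0.84, -0.04 and -0.38 against vehicle, of which the first and the last passed (adjusted p = 2.2e-12 and 1.4e-07).

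The mannose-binding lectins recognise sugars on microbes and carry the proteases of the lectin pathway. Mbl2, for mannose-binding lectin C, read 11.62 and 11.59 on the Dex arrays, 12.53 on both of the GW3965 arrays, 11.85 and 11.84 on the Dex+GW3965 arrays, and 12.68 and 12.71 on the vehicle arrays. No group overlapped another, and the order was the same as for Klkb1. It changed by -1.09 ± 0.033 with Dex (adjusted p = 1.6e-14), -0.16 with GW3965 (adjusted p = 0.0015) and -0.85 ± 0.033 with Dex+GW3965 (adjusted p = 7.3e-13). Mbl1, for mannose-binding lectin A, read 11.11 and 11.12 with Dex, 11.20 and 11.12 with GW3965, 11.24 and 11.25 with Dex+GW3965, and 11.43 and 11.41 with vehicle. All treated arrays lay below vehicle, by smaller amounts: -0.30 ± 0.038 with Dex (adjusted p = 4.5e-06), -0.26 with GW3965 (adjusted p = 0.0001) and -0.18 with Dex+GW3965 (adjusted p = 0.0013). Masp1, a protease of the lectin pathway, lay between 9.49 and 9.64 on all 8 arrays by its brightest probe set. C3, the protein on which all pathways meet, lay between 14.24 and 14.31, with changes of -0.04, -0.06 and -0.05 that did not pass (95% intervals of -0.10 to 0.02, -0.11 to 0.00 and -0.11 to 0.00).

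The terminal components fell with dexamethasone except for C8g, and by unequal amounts. C9, the subunit that polymerises into the pore, read 12.37 and 12.34 on the Dex arrays, 13.35 on both of the GW3965 arrays, 12.50 and 12.53 on the Dex+GW3965 arrays, and 13.38 and 13.44 on the vehicle arrays. The arrays with dexamethasone lay apart from those without, and the changes were -1.06 ± 0.033 with Dex (adjusted p = 2.4e-14), -0.07 with GW3965 (adjusted p = 0.18) and -0.89 with Dex+GW3965 (adjusted p = 3.5e-13). C6, which binds C5b first, read 9.47 and 9.40 with Dex, 9.81 and 9.75 with GW3965, 9.89 and 9.77 with Dex+GW3965, and 10.01 on both arrays with vehicle. It was lowest with Dex, at -0.57 ± 0.05 against vehicle (adjusted p = 3.7e-08), and lay at -0.23 with GW3965 (adjusted p = 0.0034) and -0.18 with Dex+GW3965 (adjusted p = 0.008). These last calls were lost without GW3965 array b (-0.20) and without Dex+GW3965 array b (-0.12). C5, whose cleavage opens the terminal pathway and releases the chemoattractant C5a, read 10.78 and 10.82 with Dex, 10.82 and 10.79 with GW3965, 11.30 and 11.35 with Dex+GW3965, and 11.12 and 11.01 with vehicle. Here the Dex and the GW3965 arrays overlapped below vehicle (-0.26 each, adjusted p = 6e-05 and 0.00023), and the Dex+GW3965 arrays lay above it by 0.26 ± 0.042 (adjusted p = 8.8e-05).

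C8 is built of 3 chains from separate genes, of which C8a and C8b are neighbours on chromosome 5. C8a read 11.10 and 11.15 with Dex, 11.64 and 11.55 with GW3965, 11.21 and 11.22 with Dex+GW3965, and 11.82 and 11.74 with vehicle. C8b read 11.96 and 11.97 with Dex, 12.36 and 12.33 with GW3965, 11.98 and 11.96 with Dex+GW3965, and 12.33 and 12.41 with vehicle. C8g, for the lipocalin-like gamma chain, read 12.35 and 12.36 with Dex, 12.25 and 12.20 with GW3965, 12.43 and 12.44 with Dex+GW3965, and 12.40 and 12.33 with vehicle. On the alpha and beta chain genes the arrays with dexamethasone lay below those without. The changes with Dex were -0.66 ± 0.041 for C8a (adjusted p = 3.8e-10), -0.40 ± 0.035 for C8b (adjusted p = 3.6e-08) and -0.01 for C8g (95% interval -0.09 to 0.07). With Dex+GW3965 they were -0.57, -0.40 and 0.07, of which the first and the second passed. With GW3965 C8a was at -0.19 (adjusted p = 0.003), lost without GW3965 array b (-0.14), and C8g at -0.14 (adjusted p = 0.0097), lost without vehicle array a (-0.10) or GW3965 array b (-0.11).

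All 4 regulators measured fell by similar small amounts with dexamethasone. Factor I (Cfi), the protease that degrades C3b and C4b, read 12.99 on both arrays with Dex, 13.13 and 13.11 with GW3965, 13.03 and 13.04 with Dex+GW3965, and 13.20 on both arrays with vehicle. C4bpa, for the alpha chain of C4b-binding protein, its cofactor, read 12.95 and 12.96 with Dex, 13.09 and 13.07 with GW3965, 13.05 and 13.06 with Dex+GW3965, and 13.17 and 13.14 with vehicle. C4bpb, for the beta chain, which binds protein S and so links complement to coagulation, read 12.06 and 12.02 with Dex, 12.13 and 12.15 with GW3965, 11.93 and 11.91 with Dex+GW3965, and 12.26 and 12.27 with vehicle. Dex arrays lay below vehicle on all of them. Vitronectin (Vtn), which keeps the terminal complex out of membranes, read 13.85 and 13.87 with Dex, 13.95 and 13.96 with GW3965, 13.95 and 13.99 with Dex+GW3965, and 14.04 and 14.01 with vehicle. With Dex the changes were -0.21 for Cfi (adjusted p = 1.9e-05), -0.20 for C4bpa (adjusted p = 2.8e-05), -0.23 for C4bpb (adjusted p = 1.9e-05) and -0.17 for Vtn (adjusted p = 0.00013). The last fell short of the threshold after quantile normalization, where it was -0.05. With Dex+GW3965 Cfi was at -0.17 (adjusted p = 0.00025), C4bpb at -0.35 (adjusted p = 1.6e-07) and Vtn at -0.06 (adjusted p = 0.15). C4bpa was at -0.10 (adjusted p = 0.016), a call lost without vehicle array a (-0.08), Dex+GW3965 array a (-0.09) or Dex+GW3965 array b (-0.11).

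GW3965 alone gave small falls. It passed for 13 of the 30 genes, all of them lower, 6 of coagulation and 7 of complement, while 20.5% of all probe sets passed, 14.5% lower and 5.93% higher. The changes that passed ran between -0.31 (F5) and -0.10 (Serpinc1), and the median over the 30 genes was -0.07, against -0.03 over all probe sets. Calls kept whichever array was left out were those of Proc, F5, Mbl1, Mbl2 and C5. The remaining 8 were lost without at least 1 array, among them C4bpb (-0.13), without GW3965 array a (-0.12) or b (-0.13), and 7 named above with their values. The count for coagulation was 3 without GW3965 array a and 2 without GW3965 array b, and that for complement 3 without GW3965 array b. Without either vehicle array or either GW3965 array, fewer of all probe sets passed as well. After quantile normalization 4 coagulation genes were lower and 1 higher, and 16.7% of all probe sets passed.

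With both compounds, 19 of the 30 genes differed from vehicle, 17 lower and 2 higher (F5 and C5), while 36.8% of all probe sets passed, 21.2% lower and 15.6% higher. The median was -0.14 over the 30 genes and -0.02 over all probe sets. Among the coagulation genes 7 fell and 1 rose (6 and 2 after quantile normalization, where 36.3% of all probe sets passed). Among the complement genes 10 fell and 1 rose. These comparisons with Dex, GW3965 and Dex+GW3965 share the vehicle arrays. Against GW3965 alone, Dex+GW3965 was lower for 13 genes and higher for 5 (F9, F10, F5, C5 and C8g), while 35.8% of all probe sets passed, 16.8% lower and 19% higher. The calls lost there without some array were those of Fgb (-0.09, and -0.08 to -0.10 with 1 array left out), F9 (0.11, and 0.10 to 0.13), Serpind1 (-0.09, and -0.07 to -0.12) and Cfi (-0.09, and -0.08 to -0.10). Fgb and Cfi lost theirs without any 1 array of either group, F9 without GW3965 array a, GW3965 array b or Dex+GW3965 array a, and Serpind1 without either GW3965 array, either Dex array or Dex+GW3965 array b.

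The comparison of Dex+GW3965 with Dex bears directly on what GW3965 adds to the glucocorticoid. Here 14 of the 30 genes passed, 12 higher and 2 lower, while 22.8% of all probe sets passed, 13.4% higher and 9.38% lower. The median was 0.06 over the 30 genes and 0.00 over all probe sets. The Dex arrays enter this comparison and that of Dex with vehicle with opposite sign, so the directions in both are not independent. C1s had the widest difference, 0.80 ± 0.042 (1.74-fold, adjusted p = 1.6e-10), followed by C5 at 0.52 ± 0.042 (adjusted p = 5.8e-08), Klkb1 at 0.40 (adjusted p = 7.1e-07), C6 at 0.39 ± 0.05 (adjusted p = 1.4e-05) and Mbl2 at 0.25 (adjusted p = 2.4e-05). These 5 calls were kept in every setting tried except the methods' t-test. C9 at 0.16 (adjusted p = 0.0014) and F9 at 0.15 were kept whichever array was left out. Both calls were lost without the intensity trend and with the methods' t-test, also at its own threshold. C8b (0.00, 95% interval -0.07 to 0.08), Serpinc1 (0.03, -0.03 to 0.10) and Serpinf2 (0.04, -0.04 to 0.13) had fallen with Dex and did not pass here.

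The other calls of this comparison were lost when single arrays were left out. Without any 1 of the 4 arrays compared, fewer of all probe sets passed as well. Fga was 0.18 higher (adjusted p = 0.011), lost without Dex array a (0.10) or Dex+GW3965 array b (0.15). Fgg (0.11, adjusted p = 0.023), Mbl1 (0.12, adjusted p = 0.027) and C4bpa (0.10, adjusted p = 0.019) lost their calls without any 1 of the 4 arrays compared, at 0.08 to 0.13 for Fgg, 0.12 to 0.13 for Mbl1 and 0.10 to 0.11 for C4bpa. Vtn was 0.11 higher (adjusted p = 0.0093), lost without Dex array a (0.11), Dex array b (0.12) or Dex+GW3965 array b (0.09), and was at 0.03 after quantile normalization. The genes that were lower were Serpind1 (-0.13, adjusted p = 0.0088), lost without Dex array b (-0.12) or Dex+GW3965 array b (-0.10), and C4bpb (-0.12, adjusted p = 0.015), lost without Dex array a (-0.10), Dex+GW3965 array a (-0.13) or Dex+GW3965 array b (-0.11). The chains of C4b-binding protein thus had calls of opposite sign, and the difference between the 2 genes was not tested. With 1 array left out, the count was 2 to 5 for coagulation (2 without Dex+GW3965 array b, 3 without Dex array a or b) and 5 to 9 for complement (5 without Dex array a or Dex+GW3965 array b).

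**Figure D5:**
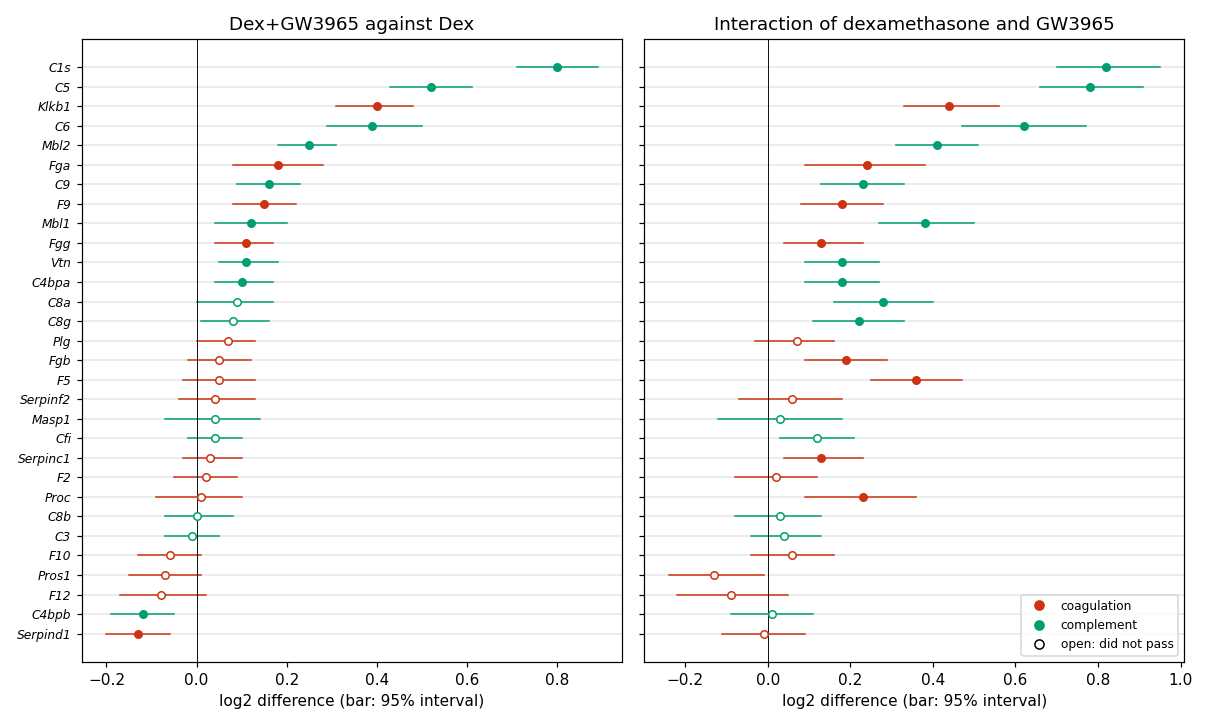
Left, log2 difference of Dex+GW3965 minus Dex for each of the 30 genes; right, the interaction, which is the change with dexamethasone in GW3965-gavaged rats minus that in vehicle-gavaged rats. Bars show the 95% interval, filled points passed at an adjusted p under 0.05, and C1s, C5, Klkb1, C6 and Mbl2 have the largest differences on the left.

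The interaction asks whether the change with dexamethasone itself differed between rats gavaged with GW3965 and those gavaged with vehicle. It passed for 18 of the 30 genes, with a positive sign in all 18, while 22.8% of all probe sets passed (15.8% positive, 6.93% negative). The median was 0.18 over the 30 genes against 0.03 over all probe sets. Vehicle arrays enter it with a plus sign and Dex and GW3965 arrays with a minus sign, opposite to the comparisons of these groups with vehicle. Its direction is thus not independent of the falls with Dex and with GW3965. By class, 10 of 15 complement genes passed, each kept whichever array was left out, and 8 of 15 coagulation genes. C1s had 0.82 ± 0.059 (adjusted p = 1.7e-08), C5 0.78 ± 0.06 (adjusted p = 3.5e-08), C6 0.62 ± 0.071 (adjusted p = 5.3e-06), Klkb1 0.44 (adjusted p = 1.6e-05), Mbl2 0.41 (adjusted p = 4.6e-06), Mbl1 0.38 (adjusted p = 6e-05) and F5 0.36 (adjusted p = 9.3e-05). The positive values came from unlike patterns. For C1s, dexamethasone gave -0.32 with GW3965 and -1.14 without it, and for Klkb1 -1.99 with GW3965 and -2.43 without it. For C5, dexamethasone gave 0.52 with GW3965 and -0.26 without it, and for F5 0.55 with GW3965 and 0.19 without it.

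The interaction depended on scaling in both classes. Over all probe sets 22.8% passed in the main fit, 21.1% after quantile normalization and 21.9% after centring. Of these, 69.5%, 53.7% and 57.3% were positive. A smaller share than in the main fit passed whichever array was left out. Of coagulation genes, 3 passed as positive and 1 as negative after quantile normalization, and 2 and 1 after each array was centred on its median. Of complement genes, 8 passed under either scaling, all positive, where C4bpa (0.18) was at 0.13 under both, and Vtn (0.18) at 0.07 after quantile normalization and 0.14 after centring. With 1 array left out the coagulation count was 3 to 8, with 3 without Dex array a, 4 without Dex+GW3965 array b and 5 without vehicle array a or GW3965 array a. Klkb1 and F5 kept their calls whichever array was left out and under both scalings. F9 (0.18) kept it whichever array was left out, and lost it after quantile normalization (0.12), after centring (0.13) and without the intensity trend (0.18). Fga (0.24) lost it without vehicle array a (0.17), Dex array a (0.15), GW3965 array b (0.20) or Dex+GW3965 array b (0.21), and Fgb (0.19) without Dex array a (0.14). Fgg (0.13) lost it without any array other than vehicle array b (0.09 to 0.15). Proc (0.23) lost it without vehicle array a (0.15), Dex array a (0.22), GW3965 array a (0.22) or Dex+GW3965 array b (0.18). Serpinc1 (0.13) lost it without vehicle array b, Dex array a or b, GW3965 array a, or Dex+GW3965 array a or b (0.11 to 0.14).

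The remaining genes of both systems were read from lists of neighbours in the pathways. Of 27 further coagulation genes 16 could be tested, and with Dex 3 rose and 6 fell (median -0.14), where 17.2% of all probe sets rose and 24.7% fell (median -0.01). A2m, for the protease inhibitor alpha-2-macroglobulin, an acute phase protein of the rat, read 11.94 on both of the Dex arrays, 8.89 and 8.83 on the GW3965 arrays, 11.58 and 11.52 on the Dex+GW3965 arrays, and 8.45 and 8.59 on the vehicle arrays. Its rise of 3.41 ± 0.049 with Dex (10.7-fold, adjusted p = 1.4e-18) ran against the falls of most clotting genes, and with Dex+GW3965 it lay 0.39 below Dex (adjusted p = 1.4e-05). Serpine2, for protease nexin, fell by 0.95 with Dex (adjusted p = 1e-08), Fgl1, for a fibrinogen-like protein, by 0.39 (adjusted p = 2.4e-08), and Cpb2, for the fibrinolysis inhibitor TAFI, by 0.30 (adjusted p = 3.4e-06). Of the 4 genes of vitamin K dependent carboxylation, Ggcx, for the carboxylase, rose by 0.34 with Dex (adjusted p = 2.3e-06) and Vkorc1, for the reductase that warfarin blocks, by 0.41 (adjusted p = 5.7e-08), while Vkorc1l1 fell by 0.27 (adjusted p = 0.018) and Furin did not pass (0.01).

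Of 32 further complement genes 16 could be tested, and with Dex 2 rose and 12 fell (median -0.31), beside the same 17.2% and 24.7% of all probe sets (median -0.01). Besides C1r, the falls included Fcna, for a ficolin of the lectin pathway (-0.95, adjusted p = 2.9e-10), Cpn1, for the carboxypeptidase that inactivates anaphylatoxins (-0.79, adjusted p = 7.3e-10), Cfp, for properdin (-0.74, adjusted p = 1e-06), and C1qa, for a chain of C1q (-0.54, adjusted p = 1.3e-08). Of the other C1q chains, C1qc fell by less (-0.19, limma, adjusted p = 0.0043) and C1qb did not pass (0.00). Serping1, for the C1 inhibitor, did not pass with Dex (-0.01). With GW3965 the 3 chains of C1q, made by macrophages, rose: C1qa by 0.27 (adjusted p = 0.0002), C1qb by 0.33 (adjusted p = 3.1e-05) and C1qc by 0.34 (adjusted p = 0.0001). The summed Kupffer cell markers were also highest on the GW3965 arrays, 3250 to 3270 against 2320 to 2360 on the vehicle arrays. Of these 5 markers 2 were higher with GW3965 and 3 did not pass, and the sum rested largely on Clec4f and Cd5l. Clec4f read 10.61 on both GW3965 arrays and 10.05 and 10.16 on the vehicle arrays. Cd5l read 9.98 and 9.95 on the GW3965 arrays and 9.32 and 9.11 on the vehicle arrays. The part of these markers in the rise of the C1q chains was not tested.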

How the data were processed

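Total RNA (5 µg) from rat liver was labelled and hybridised to 8 Affymetrix rat genome arrays, 2 per group, with groups and letters a and b taken from the labels. The authors deposited 1 log2 signal per probe set and array, for 31099 probe sets. Per the methods, probes were first re-mapped to UniGene and signals then taken from the perfect-match probes alone, less a MAS background, and the submitters' processing notes name MAS5. The log2 scale was read from the range, 2.497 to 14.95. Array medians were 5.48 to 5.52, so the values were not normalized again.

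After 57 control probe sets were removed, 16253 of 31042 were kept, those above their array's median on at least 2 arrays. Of the 31042, 20826 have 1 gene symbol, 436 several and 9780 none. The annotation can be old.

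With limma 3.58.1 (R 4.3.3), 1 mean per group was estimated over the 8 arrays together (eBayes with an intensity trend, 4 residual degrees of freedom, a prior worth 12.7), with Benjamini-Hochberg adjustment over the 16253 and a threshold of 0.05. The fit was tested on simulated data with 200 changed probe sets. Each member entered by its brightest single-symbol probe set, and all members are named. Those that passed in a pairwise comparison are given by array. The members, lists and tests were chosen with earlier results of these data known. Alternatives were no filter, a filter 1 log2 unit stricter, quantile normalization, no intensity trend, only the groups compared, a replicate block, probe sets averaged per gene, the methods' t-test and leaving out each array. Centring each array on its median was added after the data were seen. Promoters and gene order came from RefSeq GRCr8.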

Additional observations from a re-analysis of the deposited data

Results flagged for a closer look

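For 31 genes the change with dexamethasone differed between GW3965-gavaged and vehicle-gavaged rats by the interaction test (limma, adjusted p under 0.05), the same test that passed for 22.8% of all probe sets. They hold 18 of the 30 genes described above. Of 16 further coagulation genes tested they hold 2 positive and 2 negative, and of 4 genes of vitamin K dependent carboxylation 2 positive. Of 16 further complement genes tested they hold 4 positive and 3 negative. Groups of 2 arrays were too small for a search for outlying arrays. Among the coagulation factors the values, as the change under GW3965 minus that under vehicle on the log2 scale, were 0.44 for Klkb1, 0.36 for F5, 0.24 for Fga, 0.23 for Proc, 0.19 for Fgb, 0.18 for F9, and 0.13 for both Fgg and Serpinc1. Among the complement factors they were 0.82 for C1s, 0.78 for C5, 0.62 for C6, 0.41 for Mbl2, 0.38 for Mbl1, 0.28 for C8a, 0.23 for C9, 0.22 for C8g, and 0.18 for both C4bpa and Vtn.

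Of the further pathway genes, C1r had 0.49, Hrg 0.43, Fgl1 and Vkorc1l1 0.35 each, Cpn1 0.25, Vkorc1 0.17, Serping1 0.16 and Clu 0.14. Negative values belonged to A2m (-0.73), F2rl1 (-0.41), C1qb (-0.32), C1qc (-0.22) and C1qbp (-0.18).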

How the results depend on the processing

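No called value of the 30 genes changed sign in any of the 3150 recomputed values, while 316 calls were lost and 38 gained (200 lost of 2850 without the methods' t-test). The methods' t-test after Benjamini-Hochberg passed 0 coagulation and 0 complement genes in every pairwise comparison, except 1 complement gene with GW3965. Of all probe sets it passed between 0.117% (GW3965) and 0.191% (Dex). The 1 gene, C9, did not pass in the main fit, and its GW3965 arrays had a spread of 0, by which this test divides. At its own unadjusted threshold the methods' t-test passed 8 and 11 with Dex (26.7% of all probe sets), 4 and 4 with GW3965 (17.3%), 6 and 9 with Dex+GW3965 (23.3%), 4 and 6 for Dex+GW3965 against Dex (16.8%), and 6 and 10 against GW3965 (23%). Without the intensity trend, 1 coagulation and 2 complement genes passed with GW3965 (13.7% of all probe sets), 1 and 4 for Dex+GW3965 against Dex (16.7%), and 2 and 5 for the interaction (16.5%). The stricter filter left 10860 brighter probe sets, of which larger shares passed. It passed 12 coagulation and 12 complement genes with Dex (52%), 6 and 7 with GW3965 (27.9%), and 9 and 11 with Dex+GW3965 (46.9%). For Dex+GW3965 it passed 5 and 9 against Dex (30.6%) and 9 and 9 against GW3965 (45.7%). For the interaction it passed 8 and 11 (30.6%, of which 72.3% were positive). Centring each array on its median gave 3 coagulation genes with GW3965 (18.5% of all probe sets). It gave 3 for Dex+GW3965 against Dex (2 higher, 1 lower, beside 23.2%) and 3 for the interaction (21.9%). Quantile normalization gave 4 for the interaction, and over all probe sets it moved the calls with GW3965 to 1208 higher and 1505 lower, against 963 and 2362, and those of the interaction to 1843 and 1587, against 2571 and 1127. The fit with a replicate block on the letters passed 11 coagulation and 12 complement genes with Dex (40.7% of all probe sets). For the interaction it passed 6 and 10 (21.8%). The letters did not pair the arrays (correlations of -0.232 to 0.0831).

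With 1 array left out, coagulation counts were 8 to 12 with Dex, 2 to 6 with GW3965, 7 to 11 with Dex+GW3965, 2 to 5 for Dex+GW3965 against Dex, 6 to 10 against GW3965 and 3 to 8 for the interaction. Complement counts were 12 with Dex, 3 to 7 with GW3965, 9 to 11 with Dex+GW3965, 5 to 9 against Dex, 8 to 9 against GW3965 and 10 to 11 for the interaction. Over all probe sets, fewer passed in every comparison without an array of the groups compared. The class counts did not always fall with them. The complement count with Dex did not change, and the coagulation count with Dex+GW3965 rose without either vehicle array. A group with 1 array left was assumed to vary like the others. With 2 arrays per group, calls of changes near 0.1 were often lost when 1 array was left out, the file gives no detection calls, and log2 signals of bright probe sets were not checked for saturation.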

Other observations

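Values of 3 further genes of the pathways follow. Hrg, for histidine-rich glycoprotein, which binds heparin and plasminogen, read 14.26 and 14.27 on the Dex arrays, 13.77 and 13.80 on the GW3965 arrays, 14.37 and 14.42 on the Dex+GW3965 arrays, and 14.11 and 14.07 on the vehicle arrays. The groups did not overlap: it was 0.18 higher than vehicle with Dex (limma, adjusted p = 9.9e-05), 0.31 lower with GW3965 (-0.31, adjusted p = 6.7e-07) and 0.30 higher with both compounds (adjusted p = 2e-07), the order also seen for F5. Fgl1 read 12.51 and 12.48 on the Dex arrays, 12.50 and 12.51 on the GW3965 arrays, 12.49 and 12.44 on the Dex+GW3965 arrays, and 12.91 and 12.86 on the vehicle arrays. All 3 treated groups lay about equally far below vehicle, at -0.39, -0.39 and -0.43. Clu, for clusterin, an inhibitor of the terminal complex, read 12.71 and 12.72 on the Dex arrays, 13.13 on both of the GW3965 arrays, 12.92 and 12.95 on the Dex+GW3965 arrays, and 13.05 on both of the vehicle arrays. It was 0.34 lower with Dex (-0.34, adjusted p = 5.5e-08) and 0.22 higher with Dex+GW3965 than with Dex (adjusted p = 3.7e-05).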
